A study of Mus musculus with 12 samples.

Results

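The 35 genes described here are markers of ependymal cells and components of motile cilia. They were taken as a list of gene symbols, and no threshold on a measured value was applied in assigning a gene to the list. Of the 55421 genes listed for each library, 22592 had over 20 counts when the 12 libraries were summed and were tested, and 34 of the 35 listed genes were among them. The exception was *Mia*, which had 7 reads in all 12 libraries together and is not described further.

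Ependymal cells line the ventricles of the brain, and each carries a tuft of beating cilia that moves the cerebrospinal fluid. A motile cilium is built around the axoneme, in which doublet microtubules surround a central pair. Outer and inner dynein arms are the motors, radial spokes and the central pair apparatus coordinate them, and the nexin-dynein regulatory complex ties the doublets together. FOXJ1 switches on the motile cilia genes together with transcription factors of the RFX family. The hippocampus borders the lateral ventricle, whose wall is ependyma and whose choroid plexus is covered by an epithelium that is also ciliated.

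Poly(A) RNA of the hippocampus of 12 mice was sequenced, with 3 mice in each of 4 groups. The groups were wild type mice injected with vehicle (WT-Veh, animals RH2, RH5 and RH15), wild type mice injected with Nutlin-3 (WT-Nut3, RH1, RH9 and RH14), *Fmr1* KO mice injected with vehicle (KO-Veh, RH7, RH10 and RH16) and *Fmr1* KO mice injected with Nutlin-3 (KO-Nut3, RH6, RH8 and RH13). Values in 3 libraries of a group are given below in this order. The RH numbers come from the sample titles and are called animal numbers here. All mice were injected intraperitoneally when 2 months old and killed when 6 months old. The KO removes *Fmr1*, the gene silenced in fragile X syndrome, from all cells of the animal, and Nutlin-3 is an inhibitor of MDM2, the ubiquitin ligase that acts on p53. Whether the sequenced mice carried the *Nestin-GFP* reporter used elsewhere in the study is not given in the labels. The question the design addressed was which differences in the hippocampal transcriptome remained months after a brief treatment.

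Reads counted on genes ranged from 17150820 in WT-Veh RH2 to 20040482 in WT-Nut3 RH9. Levels are CPM, counts scaled to a common library size by TMM normalization, and CPM per kb of exon is used where genes are compared with each other. Log2 fold changes are from edgeR and are given ± SE, with 3 libraries in each group. *Fmr1* itself was at 79.5, 75.2 and 77.7 CPM in WT-Veh and 75.1, 73.9 and 78.3 CPM in WT-Nut3, against 32.7, 32.5 and 37.3 CPM in KO-Veh and 30.6, 28.5 and 35.7 CPM in KO-Nut3. The 6 KO libraries were all below the 6 WT libraries, so no library went against its genotype label, although reads on the remaining transcript were still counted.

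All 34 tested genes had reads in every library, with 8 counts as the lowest value of any gene in any library. The 35 listed genes, *Mia* included, lay on 17 chromosomes, with 7 of the 35 on chromosome 11. Mean levels of the 34 tested genes over the 12 libraries ranged from 1.14 CPM for *Tekt4* to 31.9 CPM for *Ccdc39*. Of these, 9 genes were above 10 CPM and 6 below 2 CPM. Per length the order was different, from 0.148 CPM per kb for *Spag17* to 6.14 CPM per kb for *Foxj1*. The highest levels per kb within the other roles were those of *Drc1* (4.38), *Fam183b* (4.32), *Rsph1* (3.59), *Dynlrb2* (2.23), *Cfap44* (2.09), *Dnah9* (1.94), *Cfap65* (1.91) and *Ak7* (1.47). Of the genes tested, the heavy chain *Dnah7a* and the central pair gene *Spag17* were lowest, at 0.154 and 0.148 CPM per kb.

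The promoters of these genes were read for motifs of the factors named above. RefSeq windows of 300 bases, from 250 bases before to 50 after a start site, were at hand for 30 of the 35 genes on GRCm38.p6, and the first one listed for each gene was searched. A short part of the X-box bound by RFX factors, GTTGCC or GGCAAC on the opposite strand, is called the X-box core here. Whole X-boxes were not searched for, and a match to the core does not show a whole X-box. This core was present in the windows of 14 of these 30 genes (46.67%). The same core was found in 12.67% of 27025 genes with a window. With every listed window of a gene searched it was in 15 of the 30, *1110017D15Rik* being added, and in 14.14% of all genes. The forkhead core TGTTTAC, which reads GTAAACA on the other strand, was in 2 of the 30 windows (6.67%), beside 3.55% of all genes. The stretches below carry these matches in genes whose values are described in the next paragraphs. They are printed 5′ to 3′ along the gene, with the matches in capitals, and include *Drc1* and *Fam183b*, whose groups overlapped in level in every pair, and *Lrriq1*, which overlapped in KO-Nut3 against WT-Veh.
Spag16 (chr1:69826844-69826887, plus strand): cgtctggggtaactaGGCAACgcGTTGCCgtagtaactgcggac
Tekt1 (chr11:72361883-72361932, minus strand): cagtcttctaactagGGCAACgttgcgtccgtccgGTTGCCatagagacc
Dynlrb2 (chr8:116504949-116504984, plus strand): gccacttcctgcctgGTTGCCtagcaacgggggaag
Hydin (chr8:110266949-110266976, plus strand): ctctgcggttgctgtGGCAACagatggt
Ccdc153 (chr9:44240510-44240545, plus strand): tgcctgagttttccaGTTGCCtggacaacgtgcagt
Drc1 (chr5:30281367-30281392, plus strand): tgactgctttcccttGGCAACggctt
Fam183b (chr11:58801961-58802042, minus strand): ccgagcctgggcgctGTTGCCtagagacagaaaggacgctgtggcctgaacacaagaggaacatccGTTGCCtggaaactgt
Lrriq1 (chr10:103236323-103236356, minus strand): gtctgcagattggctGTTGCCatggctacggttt
Cfap43 (chr19:47837395-47837431, minus strand): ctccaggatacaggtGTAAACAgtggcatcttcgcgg
Ak7 (chr12:105705836-105705872, plus strand): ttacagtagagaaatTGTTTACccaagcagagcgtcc
In *Spag16*, *Tekt1* and *Fam183b* the X-box core occurred at 2 places. In *Spag16* these were on opposite strands, 2 bases apart and pointing away from each other. It also occurred at 2 places in the first windows of *Cfap44* and *Dnah10*, whose stretches are not printed. *Cfap43* and *Ak7* carried the forkhead core and no X-box core in this window. Of the 14 tested genes with the X-box core in the first window, 11 were higher in KO-Nut3 against WT-Veh at an unadjusted *P* under 0.05, where 5.61% of all genes were, with a median log2 fold change of 1.04. Of the 15 tested genes whose first window lacked it, 10 were, with a median of 0.76. Over every window the counts were 12 of 15 with the core and 9 of 14 without it, with medians of 0.97 and 0.69. In first windows the core was in promoters of 23 of 59 other axonemal genes (38.98%), 10 of 23 intraflagellar transport genes (43.48%), 7 of 16 regulators of multiciliation (43.75%) and 5 of 19 choroid plexus markers (26.32%). With every window these counts were 24 (40.68%), 10, 9 (56.25%) and 5. The median log2 fold changes of these lists in KO-Nut3 against WT-Veh, over their tested genes and in the same order, were 0.61, 0.06, 0.09 and 4.05. The median GC content of the windows was 53.8% for the ependymal and motile cilia genes and 52.7% over all windows. A match is only a run of letters and does not show binding, and whether matches bear on the levels was not tested.

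**Figure D1:**
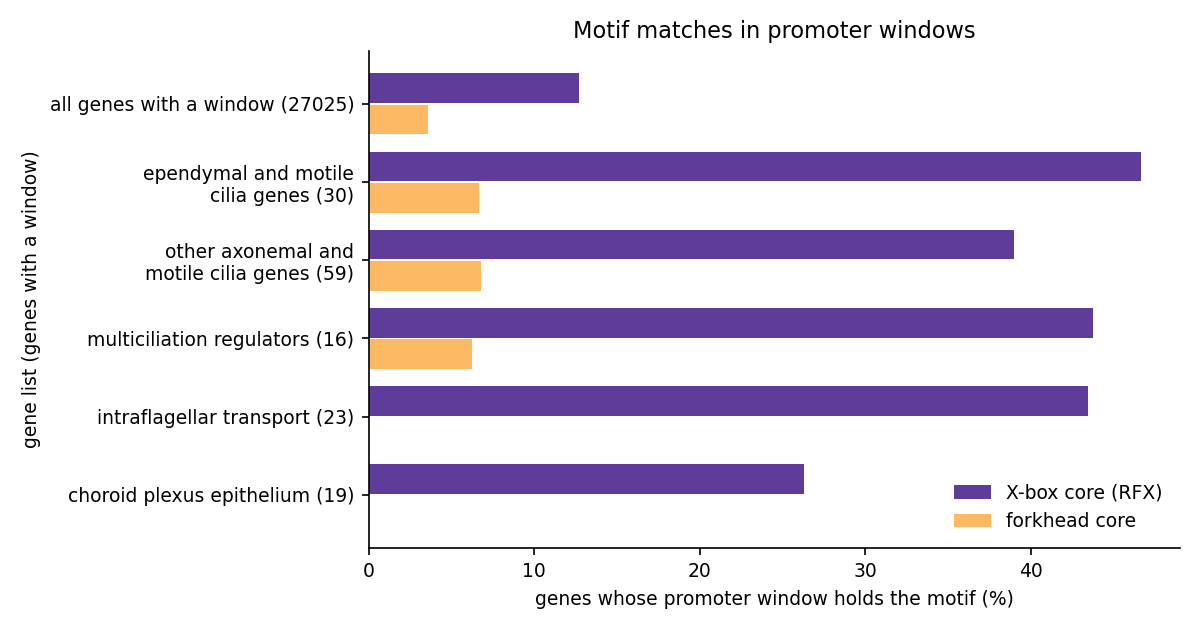
Share of genes (x axis, percent) whose first listed promoter window holds the X-box core (purple bars) or the forkhead core (orange bars), for all genes and 5 gene lists (y axis, number of genes with a window in brackets). The X-box core was in 46.67% of the ependymal and motile cilia genes and in 12.67% of all genes. This core is a short part of the X-box, and whole X-boxes were not searched for.

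The mean level was lowest in WT-Veh for 29 of the 34 genes, which held for 25.2% of all genes tested, and highest in KO-Nut3 for 26 of them, against 30.9% of all genes. Both held for 25 of the 34 genes and for 11.4% of all genes. In the bulk tissue, a larger number of ciliated cells and more of these transcripts per cell cannot be told apart. The sum over the list was 183, 211 and 215 CPM in WT-Veh, 210, 312 and 263 CPM in WT-Nut3, 213, 204 and 309 CPM in KO-Veh and 299, 279 and 352 CPM in KO-Nut3. All KO-Nut3 sums lay above all WT-Veh sums, while 1 library of WT-Nut3 (RH9) and 1 of KO-Veh (RH16) reached the range of KO-Nut3. WT-Veh RH2 was the lowest library of 12 for 16 genes (47.1%, against 12.4% of all genes tested), and KO-Nut3 RH13 was the highest for 17 (50%, against 8.64% of all genes tested).

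**Figure D2:**
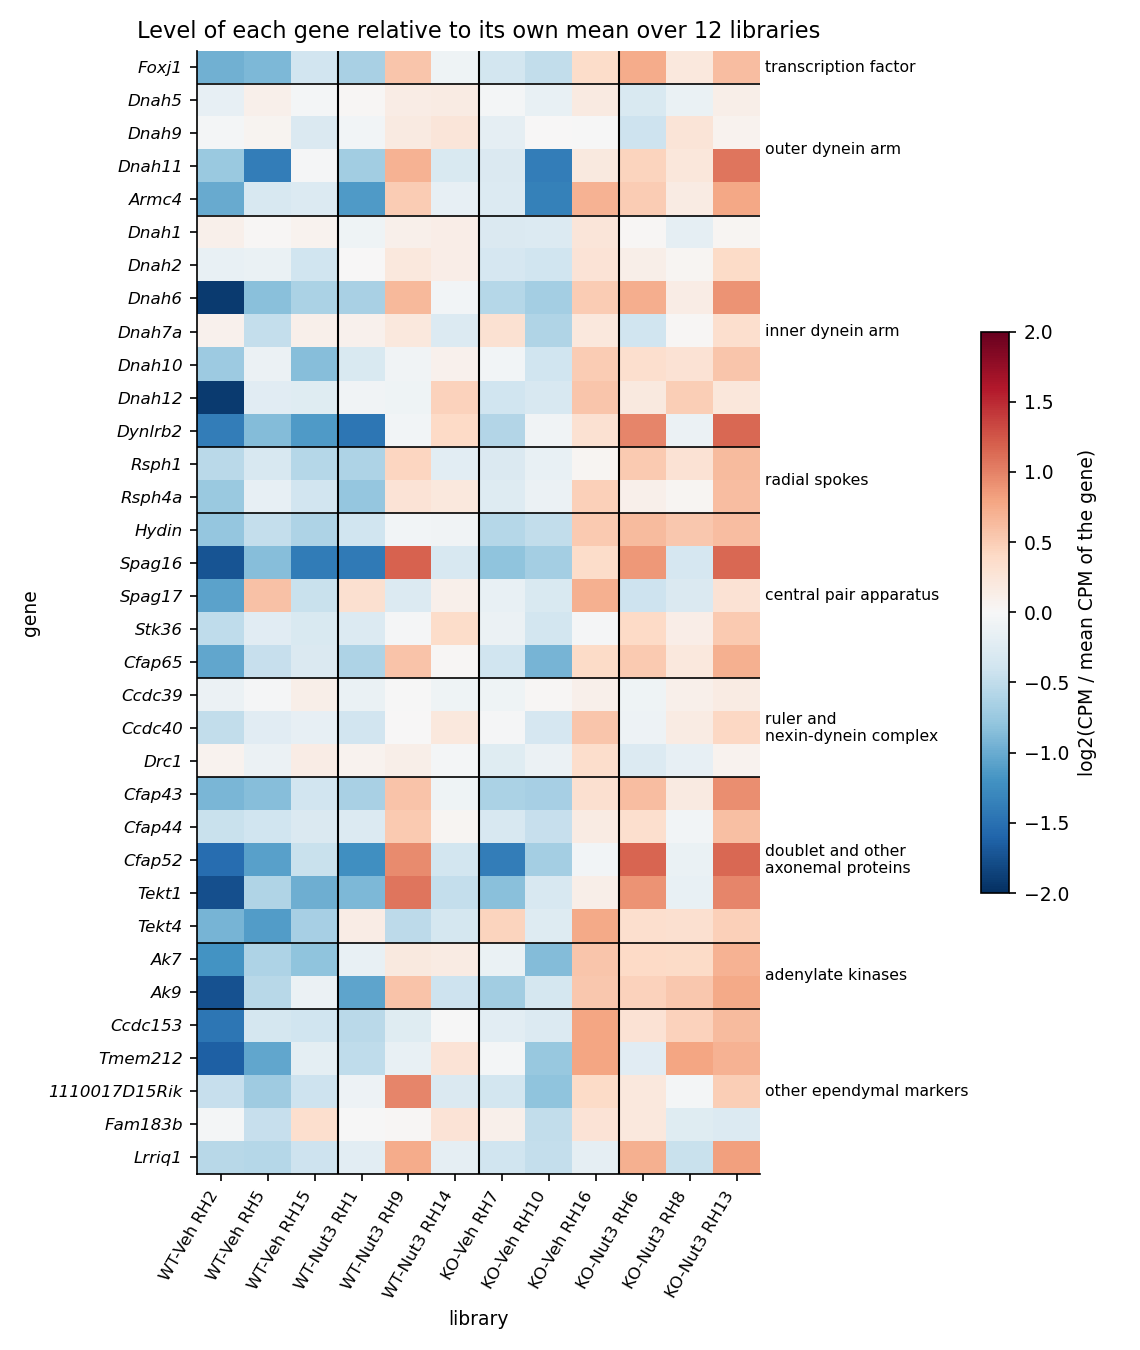
Each row is 1 of the 34 genes tested (y axis, grouped by role) and each column 1 of the 12 libraries (x axis, vertical lines between groups). Colour is the log2 of the CPM over the mean of that gene, red above and blue below it. KO-Nut3 RH13 was above the mean for 33 genes and WT-Veh RH2 for 3, and within KO-Veh the library RH16 was above it for 30.

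The comparison of KO-Nut3 with WT-Veh, which differ in genotype and treatment at once, gave the largest median of the 5 pairwise comparisons. The median log2 fold change of the 34 genes was 0.97, that of all genes tested was 0.01, and 30 of the 34 were above 0. At an unadjusted *P* under 0.05, 26 of the 34 genes were higher and 0 lower, where 5.61% of all genes were higher and 3.55% lower. The 3 libraries of KO-Nut3 were all above the 3 of WT-Veh for 24 genes and all below for 0, against 7.92% and 7.09% of all genes. With the edgeR quasi-likelihood test, 0 of them passed an adjusted *P* of 0.05, beside 0.00443% of all genes, which was *Fmr1* alone, and the lowest adjusted *P* was 0.115, for *Hydin*. DESeq2, the tool of the study, called 15 of the 34 and 0.983% of all genes on the same libraries, with 1.60e-07 as the lowest adjusted *P*, for *Foxj1*. In the order of their DESeq2 adjusted *P*, these were *Foxj1*, *Dnah6*, *Ak7*, *Hydin*, *Cfap43*, *Cfap65*, *Tekt1*, *Spag16*, *Ccdc153*, *Rsph1*, *Cfap52*, *Cfap44*, *Dnah10*, *Dynlrb2* and *Dnah11*. In edgeR, 13 of the 34 and 0.872% of all genes passed without KO-Nut3 RH8.

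Nutlin-3 against vehicle within the KO gave a median of 0.46 with 29 genes above 0. In this comparison of KO-Nut3 with KO-Veh 13 genes were higher and 0 lower at an unadjusted *P* under 0.05 (5.75% and 1.85% of all genes). The libraries did not overlap for 4 higher genes, *Dnah11*, *Rsph1*, *Hydin* and *Stk36*, and for 0 lower ones (7.85% and 5.44% of all genes). None of the 34 passed the adjusted *P* in edgeR or in DESeq2, where 0.199% of all genes passed in edgeR and 1.08% in DESeq2. Without KO-Nut3 RH8 2 of the 34, *Cfap52* among them, and 1.18% of all genes passed in edgeR. The median moved with single libraries of KO-Veh and was 0.20 without RH10 and 0.71 without RH16. The count at an unadjusted *P* under 0.05 was 22 higher without KO-Veh RH16 (5.73% of all genes). It was 4 with KO-Nut3 RH13 left out (6.21%), 4 with KO-Veh RH7 left out (4.57%) and 4 with KO-Veh RH10 left out (3.72%).

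KO-Veh against WT-Veh, the genotype comparison without drug, had a median of 0.37 with 32 genes above 0. Here 11 genes were higher and 0 lower at an unadjusted *P* under 0.05 (3.08% and 4.12% of all genes). Groups did not overlap for *Dynlrb2*, *Rsph1*, *Spag16*, *Tekt4* and *Ccdc153*, 5 genes higher in KO-Veh, and for 0 lower ones (5.9% and 6.46%). By edgeR, 0 passed the adjusted *P*, beside 0.0177% of all genes, and DESeq2 also called 0, beside 0.0974%. Without KO-Veh RH16 the median was 0.08, 21 genes were above 0, and 1 gene was higher and 1 lower at an unadjusted *P* under 0.05 (3.11% and 3.74% of all genes). Without WT-Veh RH2 2 genes were higher (2.19% of all genes).

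WT-Nut3 against WT-Veh gave a median of 0.48 with 32 genes above 0, and 12 genes higher and 0 lower at an unadjusted *P* under 0.05 (1.84% and 1.34% of all genes). The groups did not overlap for 8 higher genes, *Dnah2*, *Dnah12*, *Hydin*, *Cfap44*, *Tekt4*, *Ak7*, *1110017D15Rik* and *Lrriq1*, and 0 lower ones (3.6% and 3.92%). Neither edgeR nor DESeq2 called any of the 34, and each called 0% of all genes. Without WT-Nut3 RH9 the median was 0.31 and 2 genes were higher at an unadjusted *P* under 0.05 (1.39% of all genes). That count was 4 without WT-Veh RH2 (1.31% of all genes) and 21 without WT-Nut3 RH1 (2.78%).

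In KO-Nut3 against WT-Nut3 the median was 0.41 with 26 genes above 0. There 4 genes, *Hydin*, *Ccdc153*, *Dnah10* and *Ak7*, were higher and 0 lower at an unadjusted *P* under 0.05 (2.8% and 2.08% of all genes), and *Tekt4* was with them among the 5 genes whose groups did not overlap, all of them higher and 0 lower (5.3% and 5.35%). Again 0 passed the adjusted *P* in edgeR, beside 0.00443% of all genes, again *Fmr1*, and 0 in DESeq2, beside 0.031%. Without WT-Nut3 RH1 this median was 0.16. The count at an unadjusted *P* under 0.05 was 15 higher without WT-Nut3 RH9 (4.16% of all genes), and 2 higher and 1 lower without KO-Nut3 RH13 (3.63% and 2.74%).

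These comparisons share the libraries of WT-Veh, KO-Veh, WT-Nut3 or KO-Nut3 with each other and are given side by side, not as independent evidence. The interaction of genotype and treatment, a test of unequal responses to Nutlin-3 in WT and KO, had a median of -0.11 over the list, and 0 genes were past an unadjusted *P* of 0.05 in either direction (2.9% higher and 1.27% lower over all genes). No gene of the list or outside it passed its adjusted *P* in edgeR (0%). The sign of that median was not stable, as it was 0.18 with the 2 ranges of animal numbers, to RH8 and above it, as a block and 0.17 without KO-Veh RH16. At an unadjusted *P* under 0.05, 1 gene was higher without KO-Veh RH16, where 3.0% of all genes were, and 1 lower without KO-Veh RH10, where 0.93% of all genes were. With all 12 libraries in 1 fit of both factors without interaction, 18 genes were higher and 0 lower with Nutlin-3 at an unadjusted *P* under 0.05 (5.02% and 2.28% of all genes), with a median of 0.50. In the same fit 12 were higher and 0 lower in the KO (3.8% and 4.36%), with a median of 0.42. With 1 library left out in turn, that median for the KO ranged from 0.28 without KO-Veh RH16 to 0.54 without WT-Nut3 RH9. None passed the adjusted *P* for Nutlin-3 (0% of all genes) or for the KO (0.00443%) in edgeR, and DESeq2 called 0 of those it gave an adjusted *P*, 34 for Nutlin-3 and 2 for the KO, beside 0.397% and 0.529% of all genes with one, with 0.0565 as its lowest adjusted *P* for Nutlin-3.

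**Figure D3:**
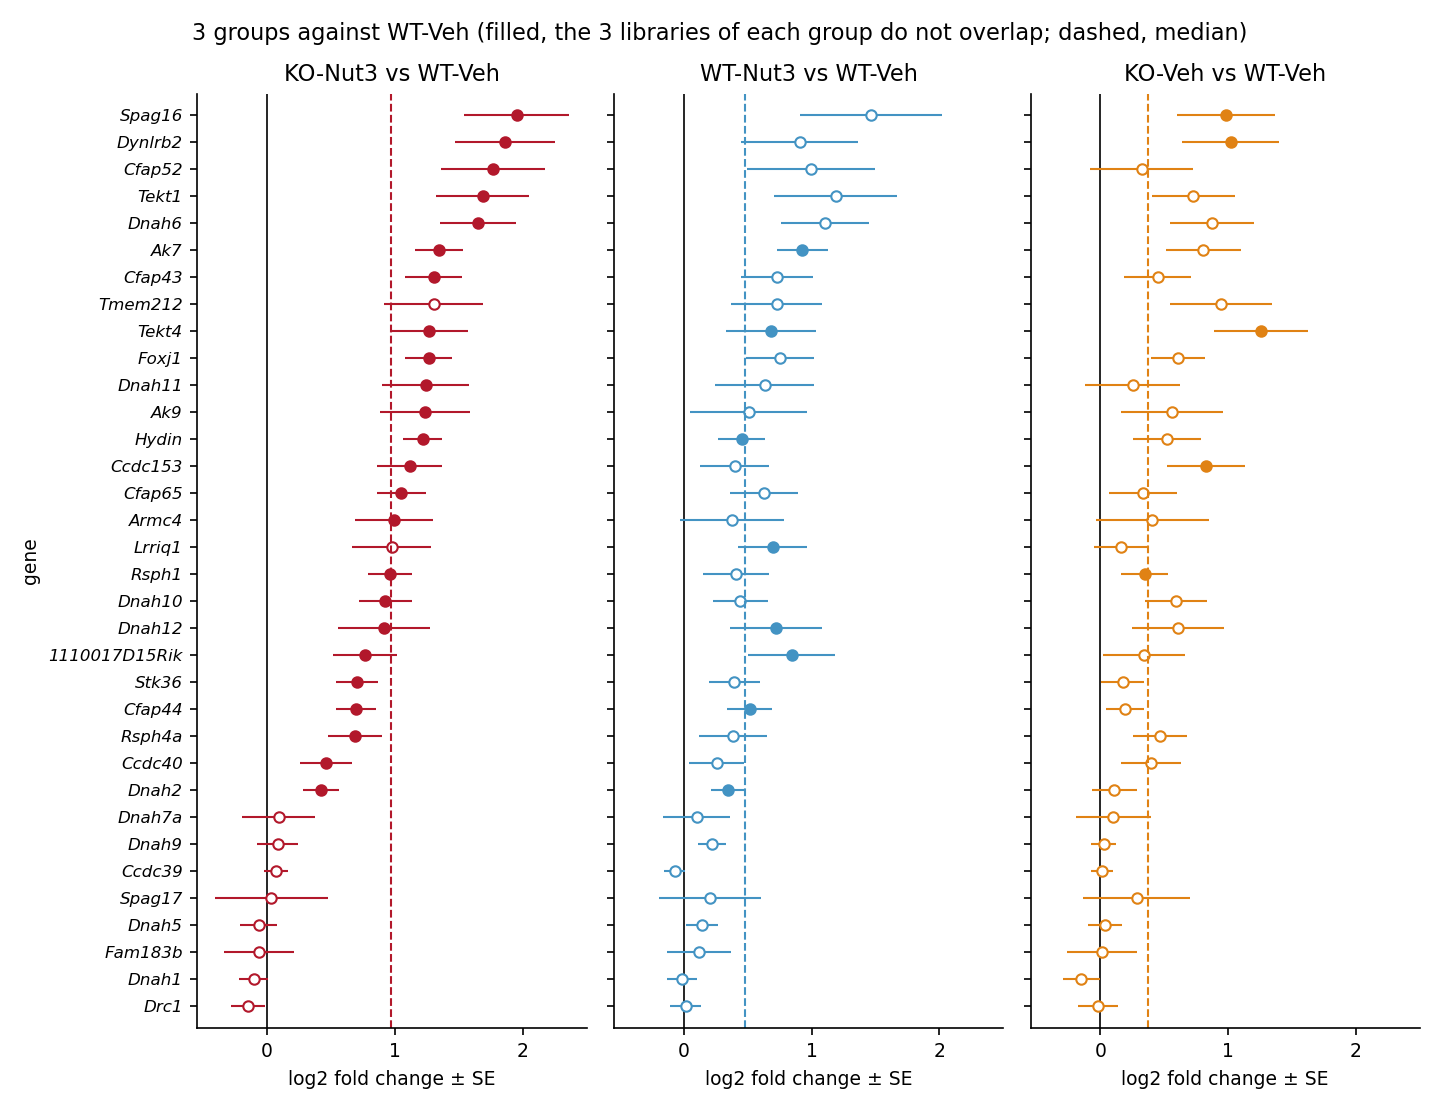
Log2 fold change (x axis, points, with SE as bars) of the 34 genes tested (y axis, in the order of KO-Nut3 against WT-Veh) for 3 groups against the same WT-Veh libraries. Filled points are genes whose 3 libraries of each group do not overlap, and the dashed lines are medians, at 0.97 for KO-Nut3, 0.48 for WT-Nut3 and 0.37 for KO-Veh. The same 8 genes, from *Dnah7a* to *Drc1*, lie at the bottom near 0 in KO-Nut3 against WT-Veh.

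*Foxj1* (ENSMUSG00000034227, GRCm38 chr11:116330704-116335399, minus strand) encodes the forkhead factor that drives motile ciliogenesis. Its level was 8.24, 8.66 and 12.3 CPM in WT-Veh, 10.2, 23.7 and 15.2 CPM in WT-Nut3, 12.5, 11.4 and 20.7 CPM in KO-Veh and 26.8, 18.6 and 24.8 CPM in KO-Nut3. The KO-Nut3 libraries were all above the WT-Veh libraries, and WT-Nut3 RH9 and KO-Veh RH16 stood above the rest of their groups. The log2 fold change against WT-Veh was 1.26 ± 0.18 in KO-Nut3 (edgeR adjusted *P* = 0.125), 0.75 ± 0.26 in WT-Nut3 and 0.61 ± 0.21 in KO-Veh. The value for WT-Nut3 was 0.39 without RH9, and that for KO-Veh 0.30 without RH16. Within the KO it was 0.65 ± 0.22 for Nutlin-3 against vehicle, with overlapping groups.

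Of the 4 outer dynein arm genes, the heavy chains *Dnah5* and *Dnah9* did not separate any groups. *Dnah9* was at 30.0, 32.2 and 25.3 CPM in WT-Veh, 29.8, 35.1 and 36.7 in WT-Nut3, 27.2, 31.2 and 30.6 in KO-Veh and 23.3, 36.9 and 32.3 in KO-Nut3, and KO-Nut3 held both the lowest and the highest of these 12 values. *Dnah5* was at 9.43, 11.4 and 10.3 CPM in WT-Veh, 10.8, 11.7 and 11.8 in WT-Nut3, 10.3, 9.58 and 12.02 in KO-Veh and 8.59, 9.62 and 11.5 in KO-Nut3. The log2 fold changes in KO-Nut3 against WT-Veh were 0.08 ± 0.16 for *Dnah9* and -0.07 ± 0.15 for *Dnah5*. The other pair, the heavy chain *Dnah11* and *Armc4*, whose product helps to dock the outer arm, were higher in all 3 KO-Nut3 libraries than in any WT-Veh library (7.92% of all genes). *Dnah11* was at 2.45, 1.58 and 4.02 CPM in WT-Veh, 2.54, 6.60 and 3.31 in WT-Nut3, 3.35, 1.58 and 4.67 in KO-Veh and 5.60, 4.81 and 8.62 in KO-Nut3, and its KO-Nut3 libraries were above those of KO-Veh and WT-Veh (log2 fold change 1.24 ± 0.34 against WT-Veh).

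Of the 7 inner dynein arm genes, 5 were higher in KO-Nut3 against WT-Veh without overlap (7.92% of all genes), namely *Dnah2*, *Dnah6*, *Dnah10*, *Dnah12* and *Dynlrb2*. *Dnah6* (GRCm38 chr6:73017606-73221651, minus strand), a heavy chain, was at 2.39, 5.04 and 5.77 CPM in WT-Veh, 5.73, 14.1 and 8.69 in WT-Nut3, 6.04, 5.58 and 12.8 in KO-Veh and 14.8, 9.96 and 16.8 in KO-Nut3. The log2 fold change was 1.65 ± 0.30 for KO-Nut3 (edgeR adjusted *P* = 0.134) and 1.11 ± 0.35 for WT-Nut3, where the groups overlapped and the value was 0.70 without RH9. *Dnah10* was at 3.82, 5.78 and 3.50 CPM in WT-Veh, 5.12, 6.01 and 6.67 in WT-Nut3, 6.04, 4.79 and 8.94 in KO-Veh and 7.93, 7.67 and 9.28 in KO-Nut3. It was among the 5 genes that separated KO-Nut3 from WT-Nut3 (0.48 ± 0.16). *Dynlrb2*, a small dynein subunit with 556 exonic bases, the fewest of the list, was at 0.478, 0.683 and 0.566 CPM in WT-Veh, 0.456, 1.19 and 1.63 in WT-Nut3, 0.826, 1.18 and 1.54 in KO-Veh and 2.44, 1.15 and 2.74 in KO-Nut3. Each KO group was above WT-Veh, and the log2 fold change in KO-Nut3 was 1.86 ± 0.39. *Dnah1* overlapped in every pair of groups, at 12.95, 12.3 and 12.7 CPM in WT-Veh, 11.4, 12.9 and 13.2 in WT-Nut3, 9.91, 10.03 and 14.3 in KO-Veh and 12.3, 10.7 and 12.4 in KO-Nut3. Its log2 fold changes were -0.15 ± 0.15 in KO-Veh and -0.10 ± 0.11 in KO-Nut3 against WT-Veh. With 1 library left out in turn they ranged from -0.34 to -0.046 and from -0.14 to -0.040. *Dnah7a*, another heavy chain, also overlapped in every pair.

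Both radial spoke head genes separated KO-Nut3 from WT-Veh, being higher (7.92% of all genes). *Rsph1* (GRCm38 chr17:31255019-31277383, minus strand) was at 3.40, 3.94 and 3.30 CPM in WT-Veh, 3.19, 6.65 and 4.26 in WT-Nut3, 4.02, 4.45 and 5.07 in KO-Veh and 7.10, 6.01 and 7.63 in KO-Nut3. It had the lowest *P* of the list in KO-Nut3 against KO-Veh, with a log2 fold change of 0.61 ± 0.17 (edgeR adjusted *P* = 0.304), and the 3 KO-Veh libraries were in turn above the 3 WT-Veh libraries (0.35 ± 0.18). *Rsph4a* was at 4.06, 6.09 and 5.20 CPM in WT-Veh and 7.32, 6.99 and 10.4 CPM in KO-Nut3 (0.69 ± 0.21).

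In the central pair apparatus, 4 of 5 genes separated KO-Nut3 from WT-Veh, being higher (7.92% of all genes). *Hydin* (GRCm38 chr8:110266977-110610253, plus strand), a very large central pair protein whose loss causes hydrocephalus in mice, was at 3.22, 3.99 and 3.60 CPM in WT-Veh, 4.21, 5.31 and 5.27 in WT-Nut3, 3.72, 3.95 and 7.92 in KO-Veh and 8.59, 8.07 and 8.51 in KO-Nut3. The 3 KO-Nut3 values were above all 9 others and close to each other, with KO-Veh RH16 next. It had the lowest *P* of the list against WT-Veh (log2 fold change 1.22 ± 0.15, edgeR adjusted *P* = 0.115) and against WT-Nut3 (0.76 ± 0.15). *Cfap65* was at 7.28, 10.9 and 12.2 CPM in WT-Veh, 9.73, 22.0 and 15.2 in WT-Nut3, 11.2, 7.83 and 19.4 in KO-Veh and 21.5, 17.2 and 24.3 in KO-Nut3, with RH9 and RH16 again above the rest of their groups. *Stk36*, a kinase needed for the central pair, was at 4.24, 5.20 and 4.89 CPM in WT-Veh, 5.02, 5.96 and 7.85 in WT-Nut3, 5.57, 4.68 and 5.92 in KO-Veh and 7.98, 6.64 and 8.67 in KO-Nut3. Its KO-Nut3 libraries were all above its KO-Veh libraries (0.52 ± 0.17). *Spag16* showed the largest fold of the list in KO-Nut3 against WT-Veh, 1.95 ± 0.41 on the log2 scale. Its levels were 0.657, 1.21 and 0.824 CPM in WT-Veh, 0.811, 4.92 and 1.74 in WT-Nut3, 1.24, 1.35 and 2.79 in KO-Veh and 3.94, 1.72 and 4.83 in KO-Nut3, with RH9, RH6 and RH13 above the other 9 libraries. *Spag17* overlapped in all pairs of groups, at 0.597, 1.89 and 0.927 CPM in WT-Veh, 1.57, 1.04 and 1.35 in WT-Nut3, 1.14, 1.01 and 2.05 in KO-Veh and 0.942, 1.03 and 1.54 in KO-Nut3.

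The molecular ruler and the nexin-dynein regulatory complex held 2 of the 8 genes that were not past an unadjusted *P* of 0.05 in KO-Nut3 against WT-Veh. *Drc1*, a subunit of the complex, was at 12.3, 10.9 and 13.03 CPM in WT-Veh, 12.3, 12.7 and 11.4 in WT-Nut3, 9.91, 10.8 and 15.03 in KO-Veh and 9.76, 10.5 and 12.4 in KO-Nut3. The log2 fold change in KO-Nut3 against WT-Veh was -0.15 ± 0.13, below 0, and ranged from -0.25 to -0.080 with 1 library left out in turn. *Ccdc39*, which with *Ccdc40* encodes the ruler, was at 29.5, 31.6 and 34.5 CPM in WT-Veh, 29.1, 31.6 and 30.2 in WT-Nut3, 30.0, 32.4 and 34.2 in KO-Veh and 30.2, 34.2 and 35.7 in KO-Nut3 (0.07 ± 0.09 in KO-Nut3 against WT-Veh). These 2 genes overlapped in all pairs of groups. In *Ccdc39*, 16.9% of the exonic bases lie opposite exons of *Ttc14*, and because strands were counted together reads of the 2 genes cannot be told apart there. *Ccdc40* was higher in KO-Nut3 against WT-Veh without overlap, but by 0.46 ± 0.20 only.

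All 5 genes of the doublet and other axonemal proteins separated KO-Nut3 from WT-Veh, being higher (7.92% of all genes). *Cfap44* was at 12.9, 13.3 and 14.4 CPM in WT-Veh, 14.4, 25.3 and 18.1 in WT-Nut3, 14.04, 12.7 and 19.7 in KO-Veh and 22.1, 16.9 and 26.6 in KO-Nut3 (0.69 ± 0.16). It also separated WT-Nut3 from WT-Veh (0.51 ± 0.18, and 0.27 without RH9), by a small margin. *Cfap52*, one of the proteins on the inside of the doublet, was at 0.657, 0.893 and 1.39 CPM in WT-Veh, 0.811, 3.63 and 1.46 in WT-Nut3, 0.722, 1.18 and 1.82 in KO-Veh and 4.21, 1.72 and 4.17 in KO-Nut3. It had the largest fold of the list for Nutlin-3 within the KO (1.44 ± 0.41, edgeR adjusted *P* = 0.334). KO-Nut3 RH8 fell inside the range of KO-Veh for this gene. The tektin *Tekt4* showed another pattern, with 0.597, 0.525 and 0.721 CPM in WT-Veh, 1.27, 0.795 and 0.897 in WT-Nut3, 1.55, 0.958 and 1.94 in KO-Veh and 1.44, 1.43 and 1.59 in KO-Nut3. Its 3 WT-Veh libraries were below all 9 others, and it had the lowest *P* of the list in KO-Veh against WT-Veh (1.26 ± 0.37, edgeR adjusted *P* = 0.607). *Tekt1* and *Cfap43* had log2 fold changes of 1.69 ± 0.36 and 1.30 ± 0.22 in KO-Nut3 against WT-Veh.

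The adenylate kinases of the axoneme, which regenerate ATP along the cilium, were both higher in KO-Nut3 against WT-Veh without overlap (7.92% of all genes). *Ak7* (GRCm38 chr12:105705976-105782447, plus strand) was at 2.69, 4.04 and 3.55 CPM in WT-Veh, 5.58, 7.10 and 6.89 in WT-Nut3, 5.62, 3.38 and 9.05 in KO-Veh and 8.15, 8.02 and 9.99 in KO-Nut3. All WT-Nut3 libraries and all KO-Nut3 libraries were above all WT-Veh libraries, and KO-Veh overlapped each other group. Its log2 fold changes against WT-Veh were 1.34 ± 0.19 in KO-Nut3 (edgeR adjusted *P* = 0.125), 0.93 ± 0.20 in WT-Nut3 and 0.81 ± 0.29 in KO-Veh, the last being 0.40 without RH16. *Ak9* was higher by 1.24 ± 0.35 in KO-Nut3 against WT-Veh.

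Among the remaining ependymal markers, *Ccdc153* (GRCm38 chr9:44240676-44247306, plus strand) was at 2.39, 5.09 and 4.94 CPM in WT-Veh, 4.46, 5.51 and 6.45 in WT-Nut3, 5.62, 5.35 and 11.2 in KO-Veh and 7.98, 8.99 and 10.05 in KO-Nut3. Each KO group was above WT-Veh without overlap, by 1.11 ± 0.26 for KO-Nut3 and 0.82 ± 0.30 for KO-Veh (0.40 without RH16) on the log2 scale, and KO-Nut3 was above WT-Nut3 (0.71 ± 0.17). *Fam183b* overlapped in all pairs of groups, with 2.39, 1.79 and 3.09 CPM in WT-Veh, 2.43, 2.48 and 2.97 in WT-Nut3, 2.63, 1.75 and 2.96 in KO-Veh and 2.83, 2.06 and 2.03 in KO-Nut3, and -0.07 ± 0.27 for KO-Nut3 against WT-Veh. *1110017D15Rik* was higher in KO-Nut3 against WT-Veh without overlap (0.76 ± 0.25). For *Tmem212* (1.30 ± 0.39) and *Lrriq1* (0.97 ± 0.31) the groups overlapped.

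**Figure D4:**
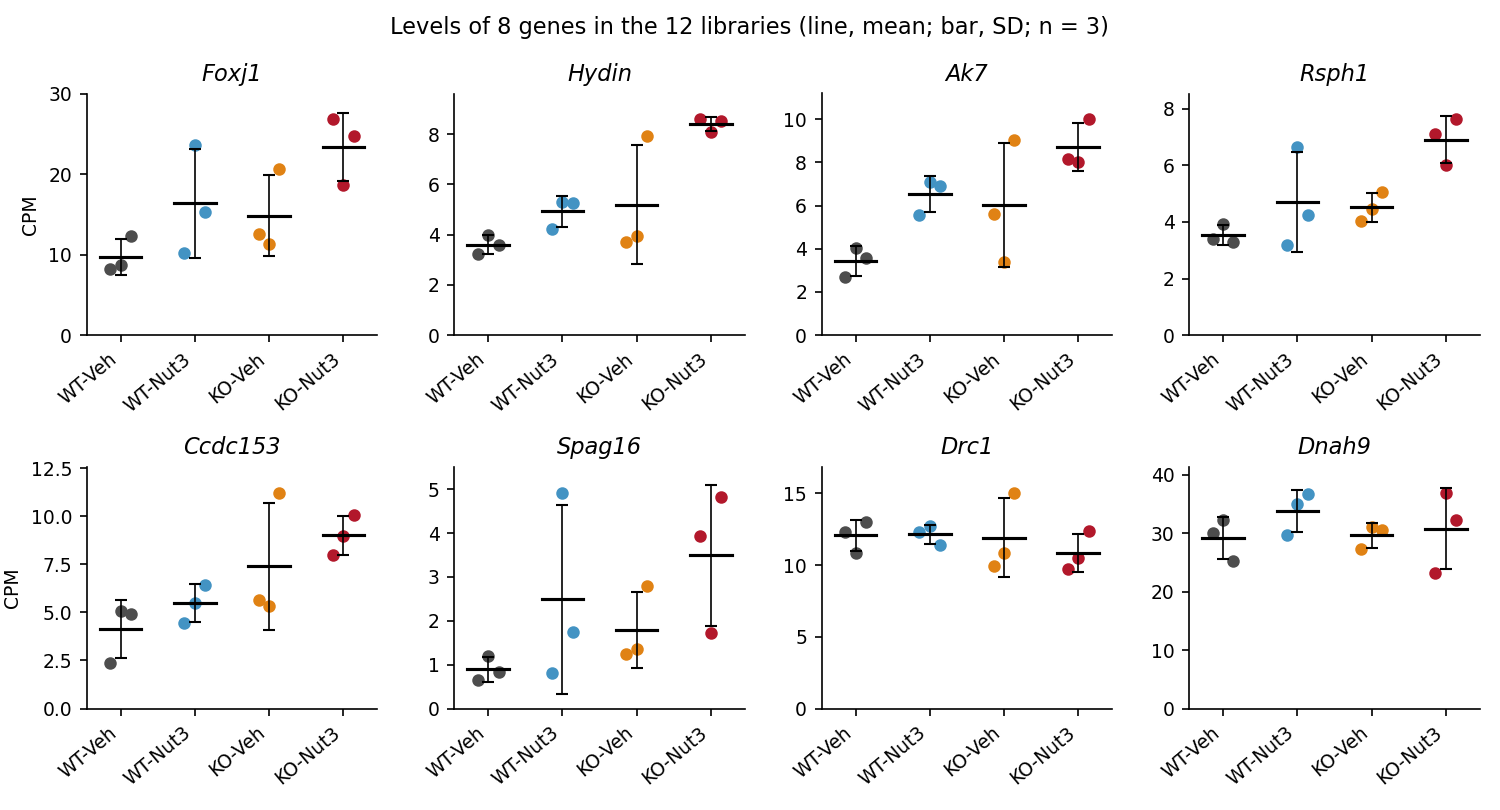
CPM (y axes, from 0) of 8 genes in the 4 groups (x axes), with 1 point per library, the mean as a line and the SD as a bar (n = 3). The KO-Nut3 libraries are above the WT-Veh libraries for *Foxj1*, *Hydin*, *Ak7*, *Rsph1*, *Ccdc153* and *Spag16*, while the groups overlap for *Drc1* and *Dnah9*.

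The libraries within a group were uneven. KO-Veh RH16 was more than 1.5 times the mean of the other 2 KO-Veh libraries for 23 of the 34 genes (67.6%), where this held for 12.3% of all genes tested. Its ratio ran from 1.05 for *Dnah9* to 2.67 for *Armc4*, with a median of 1.65. WT-Nut3 RH9 exceeded its group in the same way for 14 genes (41.2%, against 11.0% of all genes), from 0.715 for *Spag17* to 3.86 for *Spag16*, with a median of 1.14. In KO-Nut3 the library RH8 was at 0.840 of the mean of RH6 and RH13 in the median, from 0.392 for *Spag16* to 1.40 for *Tmem212*. For *Cfap52* the ratio was 1.91 in RH16, 3.20 in RH9 and 0.410 in RH8, and for *Ccdc153* 2.04, 1.01 and 0.997. Leaving out 1 library in turn moved the log2 fold change by over 1.5 times, or changed its sign, for 9 of the 34 genes in KO-Nut3 against WT-Veh. This held for 23 genes in KO-Nut3 against KO-Veh, 28 in KO-Nut3 against WT-Nut3, 30 in WT-Nut3 against WT-Veh and 31 in KO-Veh against WT-Veh. The share of all genes that moved in this way was not computed, so these counts are not particular to the list.

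Markers of the choroid plexus epithelium stood apart in the same libraries RH9, RH6 and RH13. The sum over 26 markers was 219, 267 and 236 CPM in WT-Veh, 263, 7063 and 287 in WT-Nut3, 224, 239 and 281 in KO-Veh and 5495, 804 and 7538 in KO-Nut3. *Ttr*, the transthyretin made by this epithelium and the most abundant marker in the high libraries, was at 6.39, 9.56 and 5.15 CPM in WT-Veh, 12.9, 4213 and 18.2 in WT-Nut3, 3.15, 11.6 and 15.1 in KO-Veh and 3090, 313 and 4518 in KO-Nut3. KO-Nut3 RH8 was intermediate, and KO-Veh RH16, high for the ciliary genes, was in the low range. All 26 markers were higher in KO-Nut3 against KO-Veh at an unadjusted *P* under 0.05 (5.75% of all genes). Of these, 9 rose past the adjusted *P* in edgeR (0.199% of all genes in either direction), namely *Ttr*, *Folr1*, *Kcne2*, *Tmem72*, *Slc4a5*, *Slc13a4*, *Col8a1*, *Wfikkn2* and *Ace*. The fold for *Ttr* was 8.05 ± 0.99 on the log2 scale (edgeR adjusted *P* = 0.0131) and for *Slc13a4*, a sulfate transporter, 2.74 ± 0.21 (edgeR adjusted *P* = 0.00144). The defining channel *Kcnj13* was at 0 counts in WT-Veh RH2 and KO-Veh RH10, and *Steap1* in WT-Veh RH15 and KO-Veh RH7. In KO-Veh against WT-Veh, *Clic6*, *Otx2* and *Calml4* were higher and *Slc13a4* and *Col8a1* lower at an unadjusted *P* under 0.05 (3.08% and 4.12% of all genes), named here after their values were seen. In KO-Nut3 against WT-Veh 26 of 26 were higher at an unadjusted *P* under 0.05 (5.61% of all genes), and in WT-Nut3 against WT-Veh 23 were higher and 0 lower (1.84% and 1.34%). In edgeR 0 of the markers passed the adjusted *P* in either comparison (0.00443% and 0% of all genes). The part of choroid plexus tissue in the results on KO-Nut3 and WT-Nut3 was not tested.

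The same comparisons were made without RH9, RH6 and RH13, the 3 libraries with *Ttr* above 1000 CPM, in 1 fit of the other 9 libraries. KO-Nut3 was then RH8 alone, which is assumed to vary like the other groups. In KO-Nut3 against WT-Veh the median of the 34 genes was 0.76, with 13 genes higher and 0 lower at an unadjusted *P* under 0.05 (3.56% and 3.08% of all genes). In KO-Nut3 against KO-Veh it was 0.19, with 1 gene (*Dnah9*) higher and 0 lower (3.33% and 1.3%). In WT-Nut3 against WT-Veh it was 0.31, with 1 gene (*Ak7*) higher and 0 lower (1.53% and 1.5%), and in KO-Nut3 against WT-Nut3 0.32, with 2 (*Rsph1* and *Ak9*) higher and 0 lower (3.34% and 2.75%). KO-Veh against WT-Veh, whose libraries all stayed in, had a median of 0.37, with 10 genes higher and 0 lower (3.04% and 4.02%). None of the 34 passed the adjusted *P* in edgeR in any of these, beside 0.0708% of all genes in KO-Nut3 against WT-Veh and against KO-Veh, 0% in WT-Nut3 against WT-Veh, 0.0531% in KO-Nut3 against WT-Nut3 and 0.00443% in KO-Veh against WT-Veh. *Hydin* had a log2 fold change of 1.16 ± 0.34 in KO-Nut3 against WT-Veh here and *Spag16* one of 0.93 ± 0.55.

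**Figure D5:**
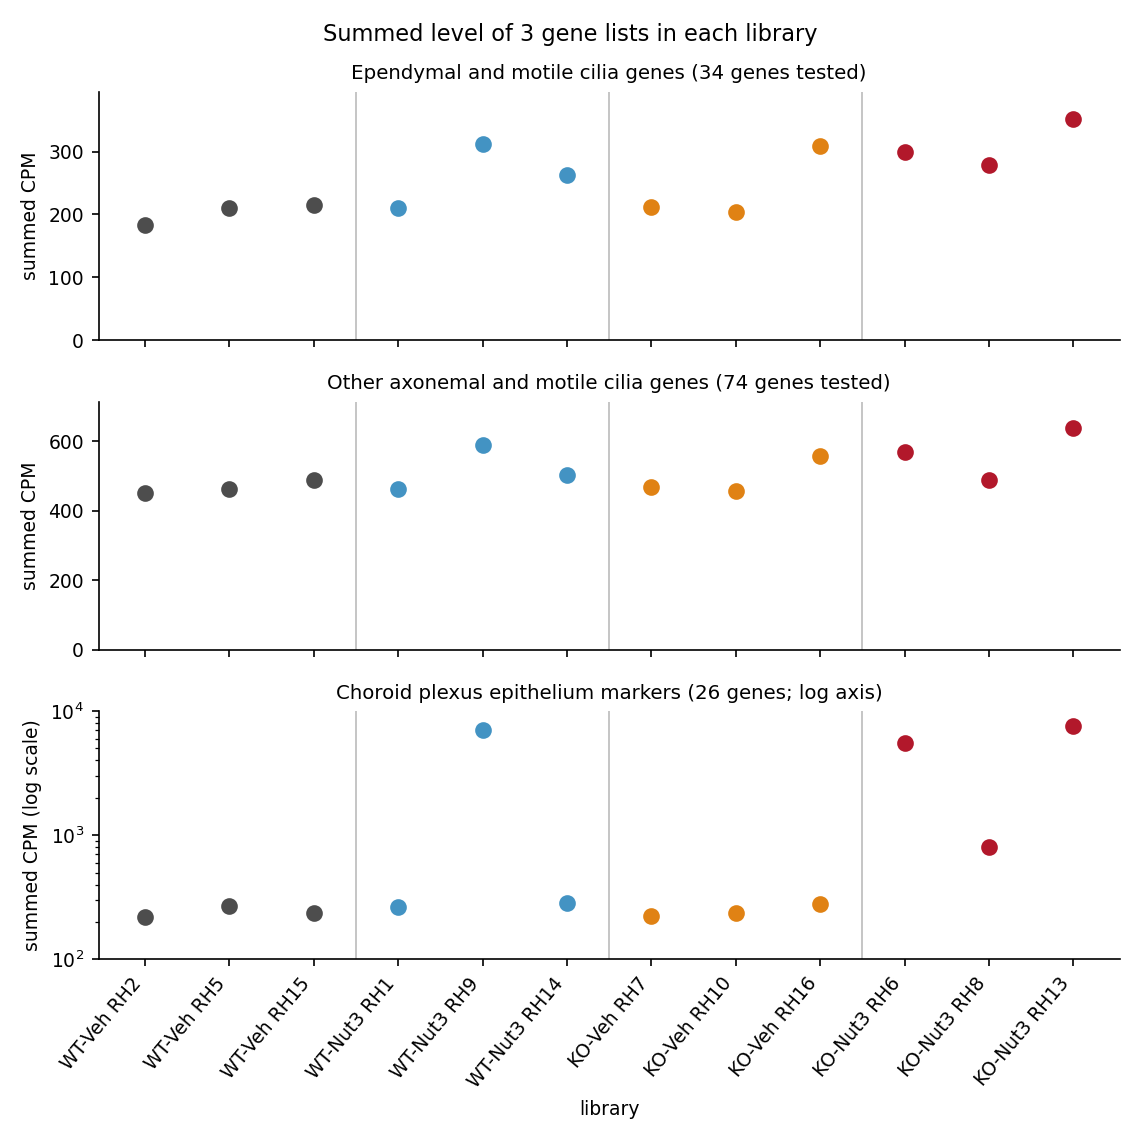
Summed CPM (y axes) of the ependymal and motile cilia genes, of other axonemal genes and, on a log scale, of choroid plexus markers in each of the 12 libraries (x axis, colours by group). The choroid plexus sum was highest in WT-Nut3 RH9, KO-Nut3 RH6 and KO-Nut3 RH13, at 5495 CPM or more, while KO-Veh RH16 was high in the upper panel (309 CPM) and not in the lower one (281 CPM).

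A separate list of 74 tested axonemal and motile cilia genes, none of them among the 34, was counted in the same way. In KO-Nut3 against WT-Veh 35 were higher and 1 lower at an unadjusted *P* under 0.05 (5.61% and 3.55% of all genes). There 34 did not overlap upwards and 1 downwards (7.92% and 7.09%), and the median log2 fold change was 0.61. In KO-Nut3 against KO-Veh 15 were higher and 1 lower (5.75% and 1.85%), with a median of 0.38. In WT-Nut3 against WT-Veh the counts were 12 and 0 (1.84% and 1.34%) with 0.33. In KO-Veh against WT-Veh they were 8 and 1 (3.08% and 4.12%) with 0.17. None passed the adjusted *P* in edgeR in these comparisons. The genes of lowest *P* in KO-Nut3 against KO-Veh were *Iqub*, *Drc7* and *Ccdc114*. *Drc7*, a partner of *Drc1* in the nexin-dynein regulatory complex, was at 1.61, 2.26 and 2.83 CPM in WT-Veh, 3.30, 22.7 and 3.81 in WT-Nut3, 3.20, 2.25 and 5.18 in KO-Veh and 22.7, 3.32 and 26.1 in KO-Nut3. It was highest in the 3 libraries with *Ttr* above 1000 CPM, and the other 9 were at 5.18 CPM or less, while *Drc1* was not raised in those 3. The 1 lower gene in KO-Veh against WT-Veh was *Efhc2*, named after its values were seen. In both KO-Nut3 comparisons it was *Dnal1*, a dynein light chain and the most abundant gene of this list, with log2 fold changes of -0.19 ± 0.07 against KO-Veh (-0.12 without KO-Nut3 RH6) and -0.24 ± 0.07 against WT-Veh.

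Lists of genes upstream of the axoneme or shared with immotile cilia had medians near 0. The 16 tested regulators of multiciliation had medians of -0.01 in KO-Nut3 against KO-Veh and 0.09 in KO-Nut3 against WT-Veh. At an unadjusted *P* under 0.05, *Gmnc* was higher and 0 were lower in the first (5.75% and 1.85% of all genes). In the second *Rfx2* was higher and *Mcidas* and *Rfx1* were lower (5.61% and 3.55%). *Gmnc*, which starts the multiciliation programme, was at 4.72, 3.99 and 4.22 CPM in WT-Veh, 3.50, 9.29 and 4.93 in WT-Nut3, 2.37, 1.92 and 2.68 in KO-Veh and 6.32, 3.61 and 10.5 in KO-Nut3. Its KO-Veh libraries were below all 9 others, and its log2 fold change was 1.55 ± 0.35 in KO-Nut3 against KO-Veh (edgeR adjusted *P* = 0.169). The most abundant of these regulators, *Rfx3*, had a log2 fold change of -0.08 ± 0.14 in that comparison. For the 28 genes of intraflagellar transport, which build motile and immotile cilia alike, the medians were 0.02 in KO-Nut3 against KO-Veh and 0.06 in KO-Nut3 against WT-Veh. At an unadjusted *P* under 0.05, 1 of the 28 was higher and 0 lower in each. It was *Dync2li1* in the first (5.75% and 1.85% of all genes) and *Ift74* in the second (5.61% and 3.55%), so these counts did not exceed the shares of all genes. Astrocyte markers, 10 in number, had medians of -0.03 in these 2 comparisons. In KO-Nut3 against KO-Veh 0 of them had an unadjusted *P* under 0.05, and in KO-Nut3 against WT-Veh *Aqp4* and *Gfap* were higher (0.39 ± 0.08 and 0.24 ± 0.09, the latter 0.14 without KO-Nut3 RH8) and *Slc1a2* lower (-0.19 ± 0.08). In that comparison with WT-Veh 5.61% of all genes were higher and 3.55% lower.

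Animal numbers up to RH8 and from RH9 differed in the share of multi-mapped reads, 3.07% to 3.22% against 3.33% to 3.55%, a division that the labels do not explain and that crosses all groups. Within these blocks the median log2 difference of the 34 genes was 0.89 and 0.99 for KO-Nut3 against WT-Veh, and 0.49 and 0.66 for KO-Nut3 against KO-Veh. It was 0.33 and 0.25 for KO-Veh against WT-Veh, 0.14 and 0.53 for WT-Nut3 against WT-Veh, and 0.57 and 0.46 for KO-Nut3 against WT-Nut3, each with 1 or 2 libraries a side. The labels do not say more of the animals, so *P*-values measure the spread between these 12 mice only.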

How the data were processed

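Poly(A) RNA of 12 mouse hippocampi, 3 per group, was sequenced, and the authors deposited unnormalized read counts per gene for each library. The submitters' processing notes name STAR and mm10. The unstranded count column was used, so overlapping genes on opposite strands share reads. The rows for unmapped, multi-mapped and unassigned reads were left out of library sizes. Genes with more than 20 counts over the 12 libraries were kept, as in the study. Each pair of groups was fitted on its own 6 libraries with the edgeR 4.0.16 quasi-likelihood test (R 4.3.3, TMM normalization, two-sided), with Benjamini-Hochberg adjustment over all 22592 genes and a threshold of 0.05. DESeq2 1.42.0 was an alternative, as were other filters, size factors, dispersion estimates and the omission of each library. The fit of both factors without interaction, the fit of 9 libraries and the search of every promoter window were chosen after seeing the data. Scripts were tested on simulated counts. A floor of 3 counts corresponded to 0.149 to 0.179 CPM. Intervals beyond the spread of mice were not computed.

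The genes and gene lists were chosen with earlier results of these data known, and no *P* is given for a list. Values in every library are given for *Foxj1*, for the gene of highest CPM per kb in each role, and for up to 3 genes per direction with the smallest unadjusted *P* in each comparison. *Spag16* and *Dnah11* were added after their values were seen. Of the other lists, the most abundant gene, those past the adjusted threshold and up to 3 per direction in KO-Nut3 against KO-Veh were eligible. Promoter sequences are from RefSeq.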

Additional observations from a re-analysis of the deposited data

How the results depend on the processing

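In the 5 pairwise comparisons, 70 of 70 medians of the 34 genes under alternatives stayed above 0. All moved by less than the SD between libraries within groups. Leaving out 1 of 3 libraries can hardly move a median further than that, so this does not show stability. In KO-Veh against WT-Veh the median fell from 0.37 to 0.08 without RH16 and still counted as unmoved. Of the counts of genes past the adjusted *P*, 63 were as in the report and 7 were higher. The count in the report was 0 in each comparison, so none could be lower. The median interaction, outside this tally, ranged from -0.23 to 0.18 and changed sign. With DESeq2 15 genes passed in KO-Nut3 against WT-Veh (0.983% of all genes). With every gene of at least 1 count in edgeR, 16 passed there, 6 in KO-Nut3 against KO-Veh, 4 in KO-Veh against WT-Veh and 7 in WT-Nut3 against WT-Veh, where 1.16%, 1.51%, 0.757% and 0.693% of all genes passed. With each library left out in turn, the count ranged from 0 to 13 in KO-Nut3 against WT-Veh and from 0 to 2 in KO-Nut3 against KO-Veh, the highest value without KO-Nut3 RH8 in each. The cause was not tested. Counts at an unadjusted *P* under 0.05 that moved by over 1.5 times with all libraries kept were, in KO-Veh against WT-Veh, 7 with DESeq2 (1.88% of all genes), 7 with robust dispersions (3.04%), 7 with all 12 libraries in 1 fit (2.54%) and 6 with the 2 ranges of animal numbers as a block (2.34%), beside 11 in the report (3.08%). In WT-Nut3 against WT-Veh they were 7 with robust dispersions (1.52%), 5 with the block (1.3%) and 19 with every gene of at least 1 count (2.19%), beside 12 (1.84%). In KO-Nut3 against WT-Nut3 they were 7 with DESeq2 (1.97%), 12 with every gene of at least 1 count (2.96%) and 15 with the block (2.35%), beside 4 (2.8%). Without each library in turn the median ranged from 0.20 to 0.71 in KO-Nut3 against KO-Veh, 0.08 to 0.58 in KO-Veh against WT-Veh, 0.31 to 0.67 in WT-Nut3 against WT-Veh, 0.84 to 1.08 in KO-Nut3 against WT-Veh, 0.16 to 0.50 in KO-Nut3 against WT-Nut3, and -0.23 to 0.17 for the interaction. Single genes near 0 changed sign in this way, *Rfx3* (-0.27 to 0.090 in KO-Nut3 against KO-Veh) among them. The log2 fold change of *Drc1* ranged from -0.26 to 0.067 in KO-Nut3 against KO-Veh and from -0.21 to 0.11 in KO-Veh against WT-Veh, that of *Spag17* from -0.50 to 0.12 in KO-Nut3 against KO-Veh, that of *Dnah1* from -0.057 to 0.049 in WT-Nut3 against WT-Veh, that of *Dnah5* from -0.19 to 0.022, of *Dnah9* from -0.071 to 0.25 and of *Fam183b* from -0.25 to 0.15 in KO-Nut3 against WT-Veh and that of *Dnah9* from -0.29 to 0.030 in KO-Nut3 against WT-Nut3. The interaction ranged from -0.67 to 0.026 for *Ak7*, from -0.022 to 0.55 for *Rsph1* and from -0.36 to 0.27 for *Foxj1*, which was at 0.25 with the 2 ranges of animal numbers as a block. No paired analysis was possible because the labels give neither litters nor any other pairing of the mice.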

Other observations

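Markers of other cells at the edge of the hippocampus also differed between libraries. Of 15 markers of meningeal and stromal fibroblasts, 14 were higher in KO-Nut3 against KO-Veh at an unadjusted *P* under 0.05 (5.75% of all genes), with a median log2 fold change of 1.37, and *Igf2*, a growth factor of meninges and choroid plexus, rose past the adjusted *P* (log2 fold change 2.75 ± 0.27, edgeR adjusted *P* = 0.00718). In KO-Veh against WT-Veh 5 of them were lower (4.12% of all genes) and 0 higher, with a median of -0.84, and in WT-Nut3 against WT-Veh 5 were lower (1.34%) and 0 higher, with a median of -0.77. In KO-Nut3 against WT-Veh 2 of the 15 were higher and 0 lower (5.61% and 3.55%), with a median of 0.63. In KO-Nut3 against WT-Nut3 14 were higher and 0 lower (2.8% and 2.08%), with a median of 1.48. *Dcn*, the most abundant of them, was at 40.1, 58.2 and 46.1 CPM in WT-Veh, 41.9, 47.4 and 28.4 in WT-Nut3, 43.0, 56.8 and 56.6 in KO-Veh and 20.3, 56.5 and 44.4 in KO-Nut3. The summed level of the list was 95.5, 263 and 132 CPM in WT-Veh, 113, 132 and 71.2 in WT-Nut3, 113, 116 and 126 in KO-Veh and 175, 344 and 129 in KO-Nut3. KO-Nut3 RH8, the KO-Nut3 library with the lowest choroid plexus sum, had the highest fibroblast sum of the 12.

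Of 10 markers of hippocampal neurons, 0 were above 0 in KO-Nut3 against KO-Veh, beside 50.8% of all genes, with a median of -0.18, and 0 had an unadjusted *P* under 0.05 in edgeR. In KO-Nut3 against WT-Veh 0 were above 0, with a median of -0.26, and 3 (*Spink8*, *Wfs1* and *Grik4*) were lower at an unadjusted *P* under 0.05 (3.55% of all genes). In KO-Nut3 against WT-Nut3 0 were above 0, with a median of -0.28, and 2 (*Spink8* and *Wfs1*) were lower (2.08%), all named after their values were seen. In edgeR 0 passed the adjusted *P* in these 3 comparisons. Their summed level was 1245, 1034 and 1075 CPM in WT-Veh, 1100, 1055 and 1152 in WT-Nut3, 1053, 1052 and 1076 in KO-Veh and 756, 1007 and 1050 in KO-Nut3, and KO-Nut3 RH6 was lowest. *Wfs1*, a marker of CA1 pyramidal neurons, fell in KO-Veh against WT-Veh (log2 fold change -0.44 ± 0.06, edgeR adjusted *P* = 0.0478). The part of the dissection in these values was not tested.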
